A study of Carassius auratus with 6 samples.

Results

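The outer segment of a photoreceptor is a cilium filled with stacked membrane discs, and the genes described here encode its discs and axoneme, the matrix around it, its Usher and polarity proteins and the transport that supplies it. They were chosen by the gene name of each gene model's best Swiss-Prot match. The rule took 23 listed names, alone or with the ending a, b, l or -like, and every name made of ift or bbs and digits. It found 148 gene models of 56251 in the table, under 40 names with unc119b counted as unc119. Of the 23 listed names 21 were found, prom1 only as prom1a and rpgrip1 only as rpgrip1l, while rom1 and crb2 matched no model. There were 12 ift names and 7 bbs names. The models lay at 107 loci, where models of 1 name less than 200 kb apart count as 1 locus, so some are fragments of 1 gene.

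RNA sequencing was done on whole eyeballs of goldfish (Carassius auratus) that were 1 winter year old, with 3 libraries titled C and 3 titled R. The fish had either normal eyes or celestial eyes, a fancy form whose eyes point upward, and each group came from its own farm, in Beijing for C and in Jiangsu for R. The labels contradict each other on the eyes: the sample labels give C as normal and R as celestial-eyed, and the design text gives the reverse. The groups are therefore called by their letters, directions are C against R, and the form of the eye and the farm cannot be told apart.

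Vertebrate discs form at the base of the outer segment as flat outgrowths of membrane, and tetraspanins at the rim hold the finished disc in shape. Components of the discs pass through the connecting cilium. Traffic there involves intraflagellar transport trains (IFT), the BBSome adaptor complex (BBS) and small lipid-binding carriers, whose cargo the GTPase Arl3 releases. Usher proteins link neighbouring membranes around the base of the outer segment and in the hair cells of the ear, and loss of many of these genes causes retinal degeneration in people.

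The libraries held 9444623 to 11017539 reads in C and 9829134 to 11317200 reads in R, as recovered from the deposited FPKM values (reads per kilobase of gene, scaled to the library's total). The first principal component, with 64.1% of the variance, separated C from R, and the next, with 14.7%, set C3 against C1 and C2. Photoreceptor marker genes summed to 40669, 44387 and 54838 FPKM in C1, C2 and C3, against 39186, 35314 and 42004 FPKM in R1, R2 and R3. Lens genes summed to 29334, 20043 and 37907 FPKM in C1, C2 and C3, against 45636, 47998 and 47873 FPKM in R1, R2 and R3. The photoreceptor markers did not move together. The level of sag was 5247, 5081 and 5522 FPKM in C, against 1451, 1430 and 1372 FPKM in R. For arr3 it was 3818, 4116 and 6562 FPKM in C, against 1892, 1782 and 2188 FPKM in R. By contrast, rho had 19635, 22450 and 26198 FPKM in C and 23146, 20556 and 24516 FPKM in R, which overlap. The groups overlapped also for gnat1, gnat2, gngt1, gngt2, cngb1, grk1, pde6a and pde6b. As for sag and arr3, every C library lay above every R library for cngb3, pde6c, grk7a and nr2e3. The name rhoa was in the list only as rho with the ending a, and it is not counted as a marker here. For cngb3 the range was 115 to 118 FPKM in C and 37.3 to 44.2 FPKM in R. For pde6c it was 208 to 268 FPKM in C and 150 to 166 FPKM in R. Every C library lay below every R library for grk7b, which was low. The part of these differences in photoreceptor and lens markers in the results below was not tested. In whole eyeballs, fewer cells of a type and less RNA per cell cannot be told apart.

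Outer segment and cilium genes moved in both directions, by class. Of the 148 models, 114 had at least 1 FPKM in at least 3 libraries and were tested with limma on log2(FPKM + 1), where a gene counts as called at a Benjamini-Hochberg adjusted p under 0.05 over all 33907 tested models. Of these 114 models 36 (31.6%) were called, 24 higher and 12 lower in C, while 20.2% of all tested models were called, 8.67% higher and 11.6% lower (2939 and 3925 models). With the median log2 ratio of every library set to 0, 25 were higher and 7 lower (3771 and 3422 of all models), and limma-voom on recovered reads called 34 higher and 9 lower (4237 and 3649 of all models). Without C1, R1, R2 or R3 only 5 or 6 were called lower, and of all models 1929 to 2423. The median log2 fold change was 0.14 over the 114 models and -0.09 over all tested models. The C and R values did not overlap for 59 of the 114 models (51.8%), against 41.4% of all tested models. The 34 untested models were all low, with no value above 1.502 FPKM in any library, and 7 of them were at 0 throughout. Among the 24 models called higher, those of eys and rpgr on chromosomes 38 and 9 reached the test's minimum through the C libraries alone.

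**Figure D1:**
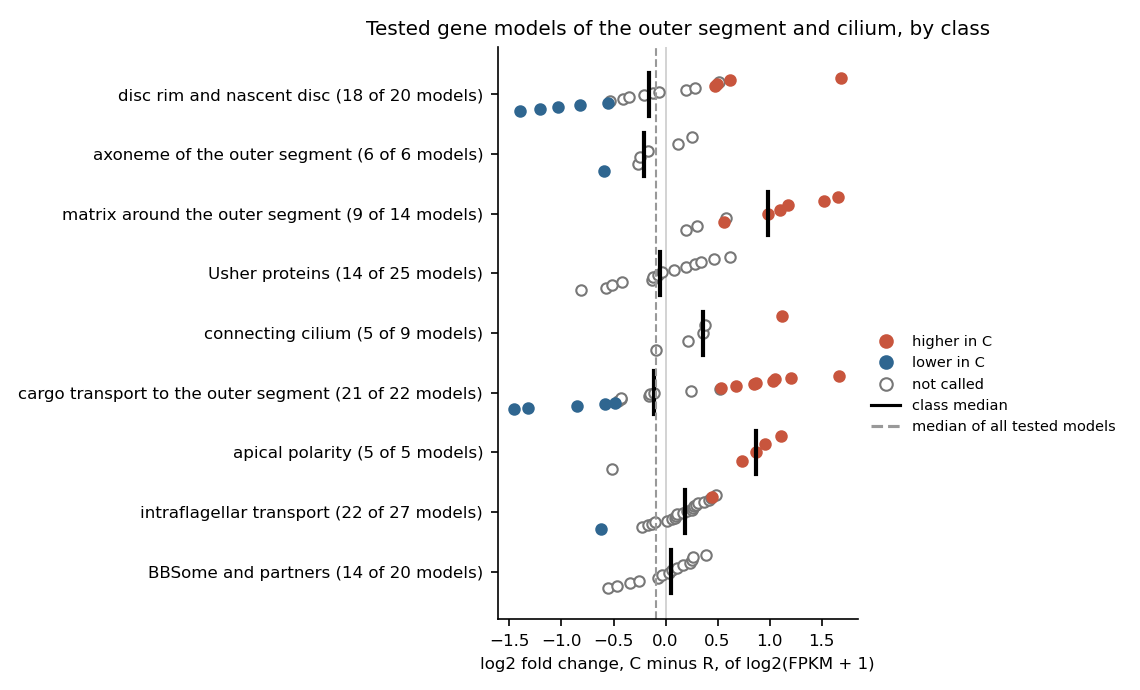
Log2 fold change of each tested gene model (points), C minus R, on the log2(FPKM + 1) scale, with classes down the page, the class median as a black bar and the median of all tested models as a dashed line. Matrix (median 0.98) and polarity (median 0.87) models sit to the right, disc and cargo models reach both ends of the axis, and Usher, IFT and BBS models lie between -0.81 and 0.61.

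FPKM was summed over all models of a name to take its copies together, since goldfish carry a duplicated genome. For a gene split into fragments the sum is not its level, since each fragment is scaled by its own length. In prom1a, Cau.14G0006800 of 330 bases made 20.9% of the sum from 650 reads in C and 560 reads in R. Cau.14G0006820, at the same locus, had 11881 reads in C and 8134 reads in R. On these sums 9 of 40 tested names were called, 8 higher in C (prom1a, eys, impg1, impg2, rpgr, arl3, crb1 and ift74) and 1 lower (tulp1), against 19.2% called among all 12592 names, 7.93% higher and 11.2% lower. The eys sum reached the test's minimum through the C libraries. The sums of unc119 and unc119b were kept apart here, and bbs12 was too low to test. Names whose models went opposite ways were prom1a, prph2, reep6 and unc119, that is 4 of the 16 names with a called model. The share among all names was not worked out, so whether 4 of 16 is unusual was not tested.

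**Figure D2:**
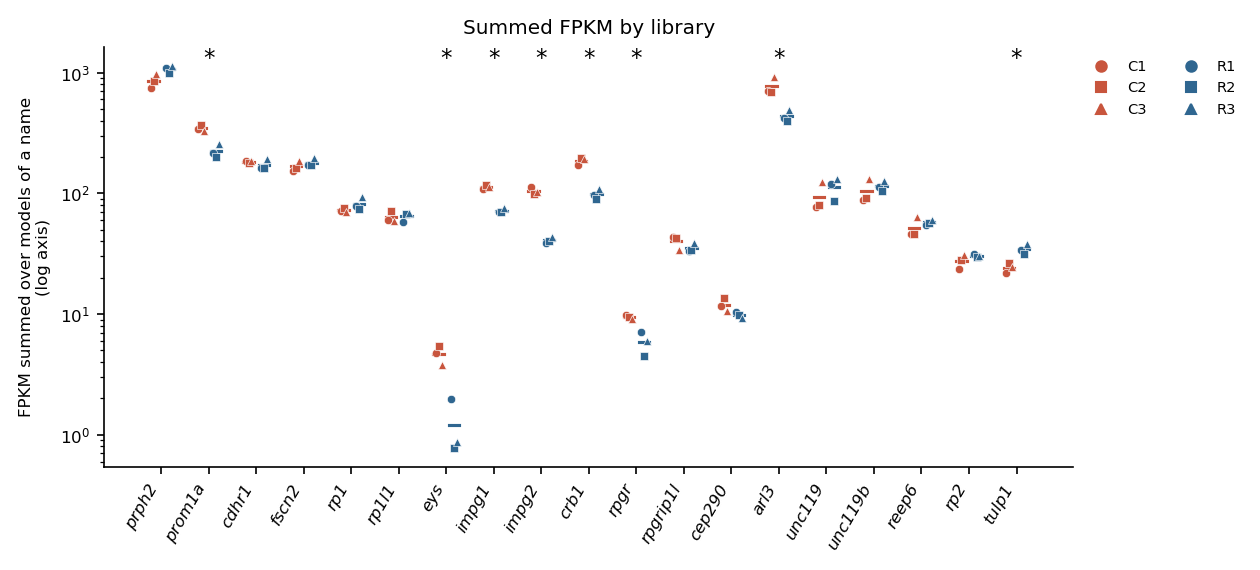
FPKM summed over the models of each name outside the Usher, IFT and BBS classes, on a log axis, with 1 point per library (C left of R) and bars at the group means; asterisks mark names called at an adjusted p under 0.05. The C points lie above the R points for prom1a, eys, impg1, impg2, crb1, rpgr, cep290 and arl3, and below them for prph2 and tulp1.

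The disc class (prph2, prom1a, cdhr1 and fscn2) was mixed, with 50% of its tested models called, against 20.2% of all tested models. Of its 20 models 18 were tested, 4 were higher in C, 5 were lower, and the median log2 fold change was -0.16. Their levels summed to 1430, 1555 and 1664 FPKM in C1, C2 and C3 and to 1638, 1529 and 1770 FPKM in R1, R2 and R3, which overlap. C3 was the highest C library for 10 of the 18 models (55.6%), against 23.2% of all tested models. Without C3 the class had 2 models higher and 5 lower (3163 and 3241 of all models, against 2939 and 3925 with every library). Without C1, R1 or R2 only 1 was called higher (1628 to 1793 of all models, against 2939 with every library). Without C2, R1 or R3 only 3 were called lower (4056, 2199 and 2423 of all models, against 3925). With quantile normalization 1 was higher and 6 were lower (3460 and 3527 of all models), and the class median was -0.30.

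Peripherin-2 (prph2) is the tetraspanin of the disc rim, and its Swiss-Prot name covered 4 models. The highest of all, Cau.30G0017220 on chromosome 30 (bases 37808165 to 37812113, minus strand), had 576, 683 and 748 FPKM in C1, C2 and C3, against 912, 815 and 928 FPKM in R1, R2 and R3. Every C library lay below every R library, but the change was not called (log2 fold change -0.41, SE 0.15, adjusted p = 0.0874). RefSeq gives this model the symbol rom1a, after the partner of peripherin-2 in the rim, so the name rests on the best match. Summed over the name, prph2 averaged 853 ± 107 in C and 1072 ± 69.1 in R (FPKM ± SD, n = 3 each), also not called (-0.34, adjusted p = 0.0998). Without C3, the highest C library for all 4 models, the sum was called lower (-0.43, adjusted p = 0.0421, in a range of 0.0421 to 0.265 over 10 alternatives). The lowest prph2 model, Cau.38G0003200 on chromosome 38 (bases 9500731 to 9503390), was lower in C, with 2.76, 3.17 and 5.38 FPKM in the C libraries against 13.2, 9.13 and 11.8 FPKM in the R libraries (-1.40, SE 0.23, adjusted p = 0.00558). It carried 0.786% of the prph2 sum. The model on chromosome 37 was higher in C (0.48, adjusted p = 0.0407).

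Prominin-1 (prom1a), a membrane protein of nascent disc edges, rose in C as a sum, with copies that were called in opposite directions. Its models summed to 343, 367 and 330 FPKM in C1, C2 and C3, against 216, 200 and 255 FPKM in R1, R2 and R3, with no overlap (log2 fold change 0.64, SE 0.12, adjusted p = 0.0103). The call rests on R2, without which the adjusted p was 0.0509, in a range of 0.00527 to 0.0509 over 10 alternatives. The copy on chromosome 1, Cau.01G0005230 (bases 14597157 to 14620341, minus strand), had 109, 131 and 138 FPKM in the C libraries, against 39.0, 35.2 and 40.6 FPKM in the R libraries. That is 3.29 times the R mean, with each C library far above each R library (1.69, SE 0.13, adjusted p = 0.000278). The longest model on chromosome 14, Cau.14G0006820 (bases 16562871 to 16578037), had 130, 126 and 111 FPKM in C, against 75.0, 75.1 and 88.4 FPKM in R, and also rose in C (0.62, SE 0.13, adjusted p = 0.0141). It was no longer called without C1, R1 or R2 or with quantile normalization (adjusted p 0.0524 to 0.0660, against 0.00252 at the lowest of 13 alternatives).

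The lower prom1a copies went the other way. On chromosome 39, Cau.39G0006590 (bases 17157439 to 17177014) had 3.23, 4.61 and 2.81 FPKM in C against 6.78, 8.16 and 9.97 FPKM in R (-1.04, SE 0.20, adjusted p = 0.0108). On chromosome 26, Cau.26G0000990 averaged 18.8 ± 3.76 in C and 34.3 ± 8.09 in R (FPKM ± SD, n = 3 each; -0.82, adjusted p = 0.0301). That model overlaps a model on the other strand, and the strand setting of the counting is not given in the sources used here. The C libraries lay below the R libraries for both copies.

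Fascin-2 (fscn2), an actin-bundling protein of photoreceptors, and cdhr1, a cadherin of nascent disc edges, were not called as sums but had called copies. fscn2 summed to 153, 163 and 184 FPKM in C1, C2 and C3 and to 170, 172 and 194 FPKM in R1, R2 and R3 (-0.10, adjusted p = 0.557). Its main copy on chromosome 37, Cau.37G0008950, had 93.2, 103 and 115 FPKM in C and 86.4, 90.0 and 95.4 FPKM in R, which overlap (0.19, adjusted p = 0.311). The lowest copy, Cau.28G0017740 on chromosome 28 (bases 37243978 to 37249721), was lower in C, with 3.14, 4.67 and 3.30 FPKM against 9.93, 9.66 and 9.57 FPKM in R (-1.20, SE 0.16, adjusted p = 0.00226), and so was the copy on chromosome 3 (-0.56, adjusted p = 0.0242). cdhr1 summed to 184, 179 and 186 FPKM in C and to 161, 161 and 191 FPKM in R (0.11, adjusted p = 0.519). Its highest copy, Cau.13G0007300 on chromosome 13, had 57.0, 58.3 and 59.6 FPKM in C and 63.1, 58.5 and 69.1 FPKM in R, and was not called (-0.12, adjusted p = 0.492). The copy on chromosome 38, Cau.38G0007760, had 69.9, 67.7 and 71.8 FPKM in C against 44.9, 46.2 and 57.5 FPKM in R, and it was called higher (0.49, SE 0.13, adjusted p = 0.0338).

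Copies on paired chromosomes were then compared with each other. Chromosomes carry numbers up to 50, and of 3822 names with exactly 2 tested models on different chromosomes, 3241 (84.8%) had them 25 numbers apart. The log2 ratio of copies 25 chromosome numbers apart was compared between C and R in the same way, also for names with more than 2 models. This gave 5685 pairs, of which 17% were called. Chromosomes with more than 1 tested model of a name gave no pair. This left out reep6 on chromosomes 11 and 36, with called models at -0.58 and 1.21. It also left out unc119 on chromosomes 15 and 40, with called models at -1.45 and 1.66. The balance of these cargo copies was not tested. Of the 18 pairs tested among the outer segment and cilium genes 5 were called, all of them in the disc and matrix classes. The largest difference was in prom1a, where the chromosome 1 copy held 86.4%, 89.1% and 85.7% of the pair's FPKM in C1, C2 and C3, against 50.9%, 58.4% and 50.3% in R1, R2 and R3 (difference of log2 ratios 2.51, SE 0.19, adjusted p = 0.000374). These were the copies called in opposite directions above. In prph2, the chromosome 13 copy held 97.3%, 96.9% and 96.0% of the pair in C and 89.8%, 92.9% and 92.2% in R (1.19, SE 0.19, adjusted p = 0.00723).

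The other 3 pairs shifted less, and their calls depended on individual libraries. In cdhr1, the chromosome 13 copy held 44.9%, 46.3% and 45.3% of the pair in C1, C2 and C3 and 58.4%, 55.9% and 54.6% in R1, R2 and R3 (-0.61, SE 0.13, adjusted p = 0.0182), so the chromosome 38 copy was the larger one in C and the smaller one in R. In impg1, the chromosome 17 copy held 62.8%, 51.2% and 55.3% in C and 71.4%, 70.7% and 69.2% in R (-0.78, SE 0.18, adjusted p = 0.0267). In fscn2, the chromosome 12 copy held 32.0%, 30.05% and 32.3% in C and 40.1%, 38.4% and 42.3% in R (-0.55, SE 0.13, adjusted p = 0.0299). The shares of C and R did not overlap in any of the 5 pairs. Over 9 alternatives the adjusted p reached 0.0657 for cdhr1 (not called without C1, R1 or R2), 0.0819 for impg1 (called without C1 and not without any other library) and 0.0900 for fscn2 (not called in any fit that left out a library, nor with the replicate number as a block, adjusted p = 0.0572), and stayed under 0.05 for prom1a and prph2.

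**Figure D3:**
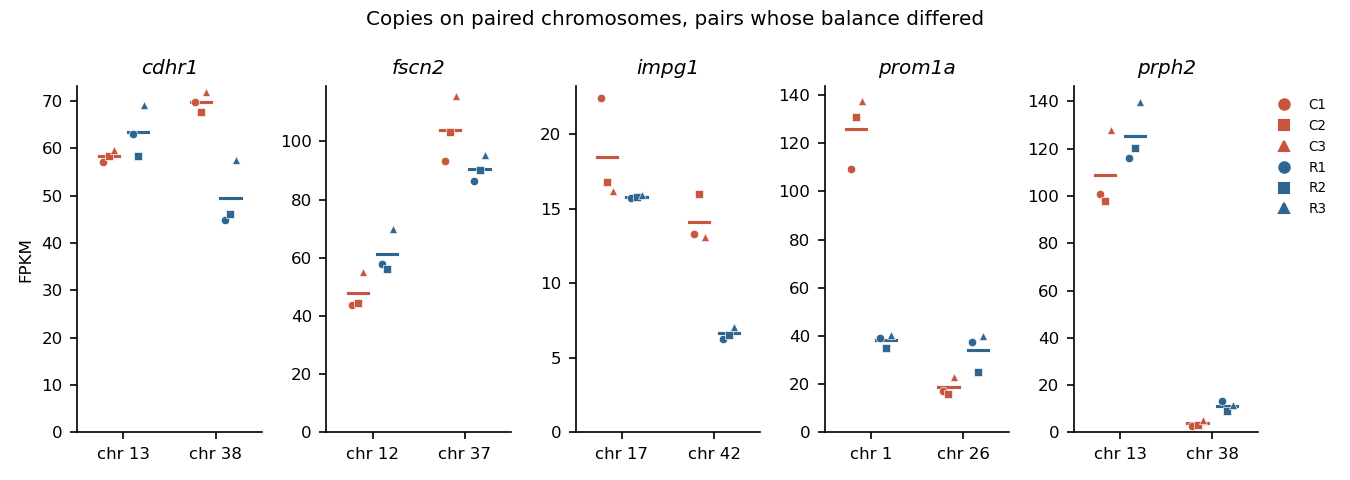
FPKM of both copies of the 5 pairs whose balance differed between C and R, by library, with bars at the group means and C left of R for each chromosome. For prom1a the chromosome 1 copy is higher and the chromosome 26 copy lower in the C libraries, and for prph2 the chromosome 38 copy is lower in the C libraries while the chromosome 13 copies overlap.

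The axoneme genes rp1 and rp1l1 encode microtubule proteins that keep discs stacked along the ciliary shaft, and they gave 1 call. It was lower in C, among 6 models tested (16.7% called, against 20.2% of all tested models), and the median log2 fold change was -0.21. The sum of rp1 was 71.0, 76.1 and 69.4 FPKM in C1, C2 and C3 and 78.4, 74.4 and 93.9 FPKM in R1, R2 and R3, and the groups overlapped (-0.18, adjusted p = 0.305). Its main model, Cau.07G0012630 on chromosome 7, had 47.3, 50.1 and 43.7 FPKM in C and 53.2, 48.2 and 57.9 FPKM in R (-0.17, adjusted p = 0.351). The called model was rp1 on chromosome 2 (Cau.02G0008370), with means of 11.1 ± 0.260 in C and 17.4 ± 3.56 in R (FPKM ± SD, n = 3 each; -0.59, SE 0.15, adjusted p = 0.0309), and with 1 library left out the class had 1 call without R1 and 0 without any other library. The sum of rp1l1 was 60.5, 70.6 and 59.4 FPKM in C and 58.0, 67.9 and 68.6 FPKM in R (-0.03, adjusted p = 0.883), and its main model on chromosome 20, Cau.20G0004790, had 34.8, 40.8 and 42.1 FPKM in C and 33.9, 36.99 and 37.1 FPKM in R (0.12, adjusted p = 0.520).

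The matrix class (impg1, impg2 and eys) held no model that was lower in C. Of its 14 models 9 were tested, and 6 were called higher and 0 lower (66.7% called, against 20.2% of all tested models). The median log2 fold change was 0.98, and every tested model of the class had a positive fold change. These counts include the model of eys, which reached the test's minimum through the C libraries alone, so its direction is no evidence for the class. The levels summed to 225, 221 and 217 FPKM in C1, C2 and C3, against 111, 111 and 120 FPKM in R1, R2 and R3, a ratio of means of 1.94. Every C library lay above every R library by far more than libraries of 1 group differed.

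impg2 encodes a proteoglycan of the interphotoreceptor matrix, anchored in the membrane around inner and outer segments. Its 4 models summed to 112, 97.7 and 101 FPKM in C1, C2 and C3 and to 38.6, 40.4 and 43.3 FPKM in R1, R2 and R3 (log2 fold change 1.33, SE 0.10, adjusted p = 0.000355). The main copy, Cau.47G0008530 on chromosome 47 (bases 16091260 to 16100089, minus strand), had 56.9, 49.3 and 51.8 FPKM in C against 15.7, 18.3 and 18.9 FPKM in R (1.53, SE 0.12, adjusted p = 0.000292). Its partner Cau.22G0015820 on chromosome 22 (bases 41025339 to 41037075) had 36.6, 32.6 and 30.4 FPKM in C against 10.6, 8.18 and 10.8 FPKM in R (1.66, SE 0.14, adjusted p = 0.00039). The C means were 2.98 and 3.37 times the R means, and their ratio to each other was not called (0.13, adjusted p = 0.626). The models on chromosomes 9 and 34 were not called (0.30 and 0.58, adjusted p = 0.0884 and 0.125). The model on chromosome 34 is impg2a in RefSeq, and the one on chromosome 9 is described there as a protease, so its place under impg2 is uncertain.

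impg1, the other proteoglycan of that matrix, summed to 109, 118 and 112 FPKM in C1, C2 and C3 and to 70.4, 69.4 and 75.7 FPKM in R1, R2 and R3, again with a clear gap (0.65, SE 0.10, adjusted p = 0.00397). The main model, Cau.20G0001230 on chromosome 20 (bases 3224324 to 3242872), had 52.9, 69.2 and 66.0 FPKM in C and 39.9, 39.6 and 46.8 FPKM in R (0.56, SE 0.14, adjusted p = 0.0308). RefSeq describes it as titin-like, and over 13 alternatives its adjusted p ran from 0.00965 to 0.112, with no call without C2, C3, R1 or R2 or with quantile normalization. Cau.45G0000760 on chromosome 45 (bases 2062033 to 2080062) had 20.0, 16.1 and 16.8 FPKM in C against 8.45, 7.51 and 5.91 FPKM in R (1.18, SE 0.16, adjusted p = 0.0024). The copy on chromosome 42 had 13.3, 15.95 and 13.1 FPKM in C and 6.29, 6.55 and 7.07 FPKM in R (0.98, adjusted p = 0.0022), while impg1b on chromosome 17 was not called (0.20, adjusted p = 0.357).

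eys encodes a secreted protein of the extracellular matrix that in zebrafish lies near the connecting cilium. It was low: its 6 models summed to 4.79, 5.43 and 3.78 FPKM in C1, C2 and C3 and to 1.98, 0.779 and 0.867 FPKM in R1, R2 and R3, a ratio of 3.86 (log2 fold change 1.39, SE 0.24, adjusted p = 0.00703). Only the model Cau.38G0010060 on chromosome 38 (bases 24851596 to 24882223, minus strand) could be tested, with 2.21, 2.37 and 2.21 FPKM in C and 0.812, 0.332 and 0.460 FPKM in R (1.1, SE 0.18, adjusted p = 0.00619). Behind these values were 197 reads in C and 48 reads in R. Both the model and the sum reached the test's minimum through the C libraries, so neither would have been tested without the higher C values, and the calls are given as a description.

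**Figure D4:**
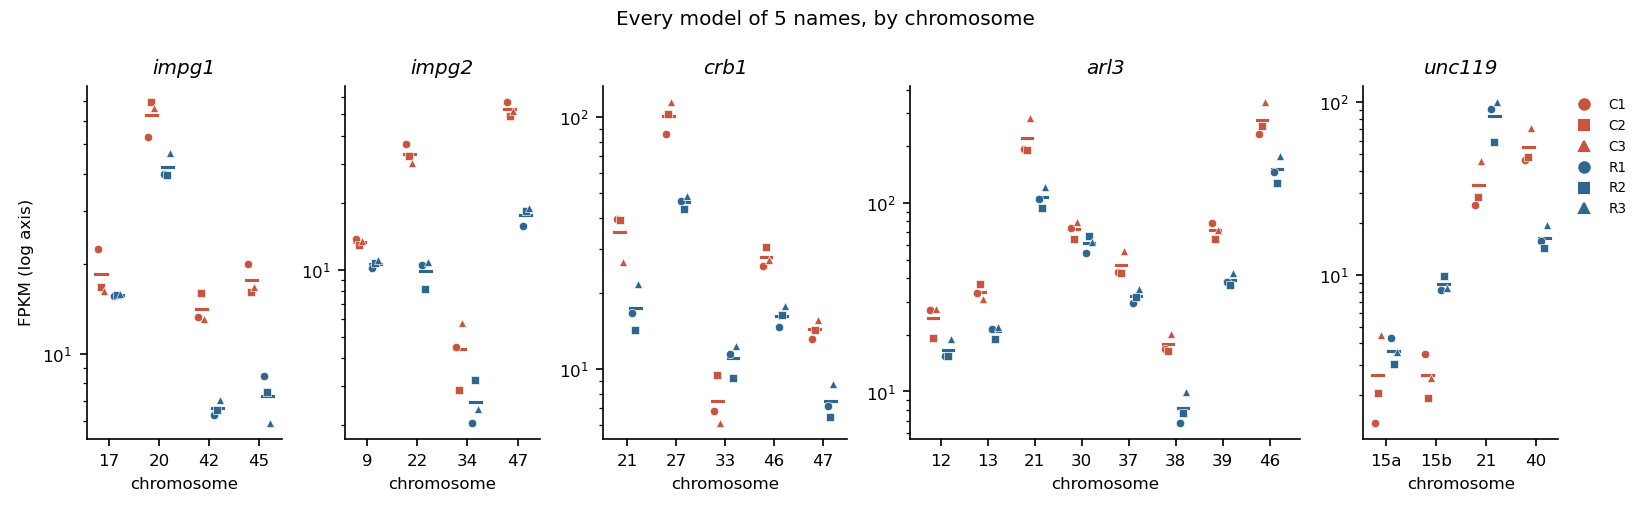
FPKM of every model of impg1, impg2, crb1, arl3 and unc119 by chromosome, on log axes, with 1 point per library, bars at group means and C left of R; 15a and 15b are both chromosome 15. The C points lie above the R points for most copies of impg1, impg2, crb1 and arl3, whereas unc119 is lower in C on chromosome 21 and higher on chromosome 40.

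Crumbs proteins set the apical domain of photoreceptors, next to the adherens junctions below the inner segment. In the polarity class 80% of the tested models were called, against 20.2% of all tested models. All 5 of its models matched crb1, 4 were called higher in C and 0 lower, and the median log2 fold change was 0.87. Together they had 171, 196 and 190 FPKM in C1, C2 and C3, against 96.5, 89.6 and 109 FPKM in R1, R2 and R3, with every C library above every R library (0.91, SE 0.11, adjusted p = 0.00209). The main model, Cau.27G0001630 on chromosome 27 (bases 4224217 to 4236984, minus strand), had 85.7, 103 and 115 FPKM in C against 46.3, 43.2 and 48.6 FPKM in R (1.11, SE 0.14, adjusted p = 0.00188). The models on chromosomes 21, 46 and 47 were higher by 0.74 to 0.96, and crb2b of RefSeq, on chromosome 33, was not called (-0.52, adjusted p = 0.0863). The models on chromosomes 21 and 46 are described as crumbs 2-like in RefSeq, so the sum holds both kinds of crumbs. Of 39 tested models of apical polarity partners 1 was higher and 7 were lower in C (20.5% called, against 20.2% of all tested models). These included patj, a scaffold bound to crumbs through Pals1, with 0.942, 1.28 and 0.555 FPKM in C and 3.37, 3.88 and 2.75 FPKM in R (-1.18, adjusted p = 0.00744), a model that reached the test's minimum through the R libraries, so that its call is a description. They also included pard3, a Par complex scaffold, with means of 3.62 ± 0.731 in C and 6.65 ± 0.363 in R (FPKM ± SD, n = 3 each; -0.74, adjusted p = 0.0158).

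Usher proteins gave no call. Of 25 models of pcdh15, cdh23 and ush1c 14 were tested, and 0 were called in either direction by limma on FPKM. An unadjusted p under 0.05 was found for 5, and limma-voom on recovered reads called 3. Over all 33907 tested models 11973 had an unadjusted p under 0.05, and limma-voom called 7886. The median log2 fold change of the Usher models was -0.05. Their levels summed to 110, 115 and 86.2 FPKM in C1, C2 and C3 and to 92.6, 102 and 101 FPKM in R1, R2 and R3. C3 was the lowest C library for 13 of the 14 models (92.9%), against 52.8% of all tested models. Without C3 1 Usher model was called (6404 of all models, against 6864 with every library).

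Protocadherin-15 and cadherin-23, the long cadherins whose tip links open the channels of hair cells, were split over many fragments. pcdh15 summed to 89.5, 95.5 and 67.4 FPKM in C1, C2 and C3 and to 79.2, 87.8 and 86.3 FPKM in R1, R2 and R3, so C3 was the lowest of all libraries (-0.02, adjusted p = 0.939). Its highest model, Cau.04G0006580 on chromosome 4, had 36.4, 39.5 and 35.6 FPKM in C and 29.0, 31.6 and 30.8 FPKM in R (0.28, adjusted p = 0.107), and was called with limma-voom only (0.41, adjusted p 0.0323 to 0.424 over 13 alternatives). RefSeq describes it as another cadherin, cadherin-related family member 5-like. cdh23 summed to 12.1, 11.1 and 7.10 FPKM in C and to 7.21, 8.77 and 6.27 FPKM in R (0.38, adjusted p = 0.227). Its only tested model, Cau.13G0010440 on chromosome 13, had 9.94, 8.92 and 6.07 FPKM in C and 6.02, 6.24 and 4.75 FPKM in R (0.46, SE 0.19, adjusted p = 0.131), and the C1 and C2 values alone lay above R. It was the model called without C3 (0.65, adjusted p = 0.0291), and over 13 alternatives its adjusted p ran from 0.0184 to 0.323.

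Harmonin (ush1c), the scaffold that binds both cadherins, had 7.12, 7.21 and 10.6 FPKM in C1, C2 and C3 and 4.03, 4.54 and 6.76 FPKM in R1, R2 and R3 at Cau.25G0010280 on chromosome 25. The C values were all above the R values, without a call on FPKM (0.61, SE 0.22, adjusted p = 0.0848), and the sum of both copies was not called either (0.50, adjusted p = 0.109). The model was called with the replicate number as a block (0.61, adjusted p = 0.0332) and with limma-voom (0.82, adjusted p = 0.0451), in a range of 0.0332 to 0.226 over 13 alternatives. Among 29 tested models of the other Usher genes 0 were higher and 2 were lower in C (6.90% called, against 20.2% of all tested models). The call with the smallest p was pdzd7, a scaffold of the ankle links of hair cells, with 0.379, 0 and 0.163 FPKM in C and 1.09, 1.71 and 1.27 FPKM in R (-1.0, adjusted p = 0.0128). This model reached the test's minimum through the R libraries.

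**Figure D5:**
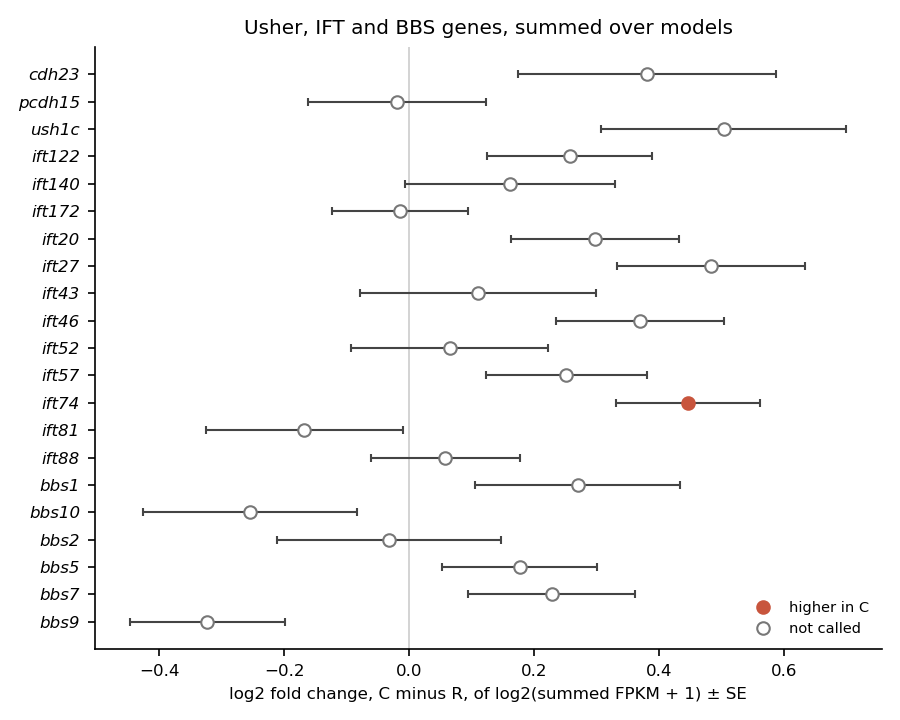
Log2 fold change, C minus R, of FPKM summed over the models of each Usher, IFT and BBS name (points), with bars of 1 standard error from the fit. Values run from -0.32 for bbs9 to 0.50 for ush1c, and ift74 alone is called.

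Ciliary transport genes (connecting cilium, cargo transport, IFT and BBS) had 62 tested models, with a median log2 fold change of 0.14. Of these 10 were higher and 6 lower in C (25.8% called, against 20.2% of all tested models). The cargo class held 13 of these 16 calls, and the IFT and BBS classes together held 2, over 36 tested models. Motile cilia also use IFT. Of 43 models of motile cilium genes 1 could be tested, and their summed level was 8.49 to 11.4 FPKM in C and 6.93 to 10.7 FPKM in R.

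The connecting cilium class (rpgr, rpgrip1l and cep290) had 5 tested models of 9, with 1 call (20%, against 20.2% of all tested models). rpgr, a guanine exchange factor-like protein of the photoreceptor transition zone, summed to 9.79, 9.46 and 9.15 FPKM in C1, C2 and C3 and to 7.04, 4.51 and 5.98 FPKM in R1, R2 and R3, all C above all R (0.63, SE 0.16, adjusted p = 0.0305). Over 10 alternatives its adjusted p ran from 0.0173 to 0.101, with no call without C1, C2, R2 or R3. The copy on chromosome 9, Cau.09G0005290 (bases 14036033 to 14041352), was called, with 2.72, 1.85 and 1.77 FPKM in C and 0.630, 0.254 and 0.391 FPKM in R (1.12, SE 0.20, adjusted p = 0.00814), from 143 reads in C and 30 reads in R. It reached the test's minimum through the C libraries only, so its call too is a description. The main copy, rpgrb on chromosome 36 (Cau.36G0007150), had 6.81, 7.57 and 7.12 FPKM in C and 6.33, 4.14 and 5.55 FPKM in R (0.38, adjusted p = 0.140), and was called with limma-voom only (0.56, adjusted p 0.0331 to 0.372 over 13 alternatives).

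The partners of rpgr were not called by limma on FPKM. rpgrip1l, whose main model Cau.24G0001860 on chromosome 24 carries the RefSeq symbol rpgrip1, the anchor of rpgr in the connecting cilium, had 39.0, 38.7 and 29.9 FPKM in C1, C2 and C3 and 28.8, 29.0 and 34.1 FPKM in R1, R2 and R3 at that model (0.22, adjusted p = 0.321). The groups overlapped because C3 lay among the R values. cep290, a linker between microtubules and the ciliary membrane, had 11.03, 13 and 9.94 FPKM in C and 9.52, 8.36 and 7.91 FPKM in R at Cau.50G0004790 on chromosome 50, with C above R and no call on FPKM (0.36, SE 0.14, adjusted p = 0.111). It was called with limma-voom (0.51, adjusted p = 0.0160) and with the median log2 ratio set to 0 (0.44, adjusted p = 0.0400), in a range of 0.0160 to 0.260 over 13 alternatives.

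The cargo class (arl3, unc119, reep6, tulp1 and rp2) had the largest share of calls among the transport genes. Of 22 models 21 were tested, and 8 were higher and 5 lower in C (61.9% called, against 20.2% of all tested models). The median log2 fold change of the cargo models was -0.11. Their levels summed to 953, 962 and 1288 FPKM in C1, C2 and C3 and to 771, 707 and 878 FPKM in R1, R2 and R3. C3 was the highest C library for 14 of the 21 models (66.7%), against 23.2% of all tested models. Without C3 7 were higher and 6 lower (3163 and 3241 of all models). Without C1, R1, R2 or R3 only 1 or 2 were called lower (1929 to 2423 of all models, against 3925 with every library).

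Arl3, the small GTPase that frees lipidated proteins from their carriers inside the cilium, was higher in C for most of its copies. Its 8 models summed to 698, 691 and 913 FPKM in C1, C2 and C3 and to 417, 400 and 491 FPKM in R1, R2 and R3, with no overlap (0.81, SE 0.15, adjusted p = 0.00899). The main copy, Cau.46G0007630 on chromosome 46 (bases 16800266 to 16805060), had 233, 255 and 344 FPKM in C and 146, 128 and 178 FPKM in R (0.87, SE 0.19, adjusted p = 0.0177, and 0.0629 and 0.0748 without R1 and R2, in a range from 0.00644 over 13 alternatives). Its partner Cau.21G0008970 on chromosome 21 (bases 17907006 to 17911780) had 193, 191 and 284 FPKM in C and 106, 94.7 and 121 FPKM in R (1.03, SE 0.19, adjusted p = 0.00841). Cau.38G0005090 on chromosome 38 (bases 14095925 to 14098330) had 16.8, 16.4 and 20.3 FPKM in C and 6.80, 7.68 and 9.92 FPKM in R (1.05, SE 0.16, adjusted p = 0.00416). In all 6 of the 8 copies were called higher, and the copies on chromosomes 12 and 30 were not (0.52 and 0.24, adjusted p = 0.0616 and 0.243). The ratios of the 3 tested pairs of arl3 copies were not called (adjusted p = 0.220 to 0.964).

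unc119 encodes a carrier of myristoylated proteins such as transducin, and models matched to it changed places in level between the groups. Cau.21G0011210 on chromosome 21 (bases 23600079 to 23603101) had 25.3, 28.3 and 46.0 FPKM in C1, C2 and C3 and 91.9, 59.2 and 101 FPKM in R1, R2 and R3 (-1.32, SE 0.27, adjusted p = 0.0134, and 0.0521 without R1). Cau.40G0007240 on chromosome 40 (bases 16301055 to 16307782) had 46.2, 47.9 and 70.6 FPKM in C and 15.7, 14.2 and 19.4 FPKM in R (1.66, SE 0.19, adjusted p = 0.0014). The chromosome 40 model was thus above the chromosome 21 model in every C library and below it in every R library. Chromosomes 21 and 40 are not 25 numbers apart, and the ratio of these models was not tested. A low model on chromosome 15, Cau.15G0007950 (bases 19447386 to 19456239), had 3.46, 1.92 and 2.51 FPKM in C and 8.18, 9.86 and 8.44 FPKM in R (-1.45, SE 0.19, adjusted p = 0.0021), and it overlaps a model on the other strand. The sum over the 4 models, 76.3, 80.3 and 124 FPKM in C and 120, 86.3 and 132 FPKM in R, overlapped and was not called (-0.28, adjusted p = 0.396). The related unc119b, with its main model Cau.03G0011340 at 84.8, 86.6 and 130 FPKM in C and 108, 99.8 and 123 FPKM in R, was not called (-0.16, adjusted p = 0.585).

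reep6, which shapes membranes of the endoplasmic reticulum in rods, also had copies that went opposite ways. Cau.36G0001890 on chromosome 36 (bases 4627833 to 4635017) had 18.1, 16.2 and 23.8 FPKM in C1, C2 and C3 and 7.40, 7.72 and 8.06 FPKM in R1, R2 and R3 (1.21, SE 0.15, adjusted p = 0.00207). The main model, Cau.11G0002050 on chromosome 11, had 17.2, 17.3 and 23.4 FPKM in C and 30.8, 26.9 and 29.3 FPKM in R (-0.58, SE 0.15, adjusted p = 0.0302), and the model on chromosome 27 was lower too (-0.85, adjusted p = 0.0430). Over 13 alternatives the adjusted p of the chromosome 11 model ran from 0.00814 to 0.106, with no call in 7 of them: without C1, C2, R1, R2 or R3, with the median log2 ratio set to 0 and with limma-voom. The sum of reep6, 45.9, 45.8 and 63.6 FPKM in C and 55.0, 56.2 and 60.5 FPKM in R, was not called (-0.16, adjusted p = 0.465). Without C3 it was called lower (-0.31, adjusted p = 0.0457, in a range of 0.0457 to 0.769 over 10 alternatives).

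tulp1, a photoreceptor protein needed to bring rhodopsin to the outer segment, was the name that fell in C. Its model Cau.31G0012860 on chromosome 31 (bases 33458316 to 33471678) held the whole sum, with 21.8, 26.3 and 24.4 FPKM in C1, C2 and C3 and 33.6, 31.6 and 37.7 FPKM in R1, R2 and R3, and the groups did not overlap (-0.49, SE 0.12, adjusted p = 0.0302 among models and 0.0238 among names). Over 13 alternatives the adjusted p of the model ran from 0.00962 to 0.0959, with no call without C1, R1, R2 or R3, with the median log2 ratio set to 0, with limma-voom or with the replicate number as a term. rp2, which activates the GTPase of Arl3, had 23.7, 28.2 and 30.8 FPKM in C and 31.6, 29.5 and 30.3 FPKM in R at Cau.06G0008140 on chromosome 6, and was not called (-0.15, adjusted p = 0.434).

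Intraflagellar transport genes gave few calls. Of 27 models 22 were tested, and 1 was higher and 1 lower in C (9.09% called, against 20.2% of all tested models). The median log2 fold change of the IFT models was 0.19. An unadjusted p under 0.05 was found for 5 (11973 of all 33907 tested models), and limma-voom called 4 (7886 of all). The IFT levels summed to 166, 168 and 171 FPKM in C1, C2 and C3. They summed to 148, 135 and 156 FPKM in R1, R2 and R3, so that the C libraries lay above R by a ratio of 1.15. ift74, a core subunit of the train that binds tubulin with ift81, was the name that rose, with 12.5, 13.03 and 14.5 FPKM in C and 9.78, 9.15 and 9.64 FPKM in R (0.45, SE 0.11, adjusted p = 0.0313 among models and 0.0310 among names). Its sum was no longer called without C1, C2, R1, R2 or R3 or with the replicate number as a term (adjusted p up to 0.118, and 0.0233 at the lowest of 10 alternatives), and its model overlaps a model on the other strand. ift81 itself had 5.18, 6.89 and 4.73 FPKM in C and 6.49, 5.93 and 6.63 FPKM in R (-0.17, adjusted p = 0.485).

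The 3 most abundant IFT names were not called as sums. ift172, a large peripheral subunit, had 28.9, 30.9 and 27.9 FPKM in C1, C2 and C3 and 28.5, 27.4 and 32.8 FPKM in R1, R2 and R3 (-0.01, adjusted p = 0.939), although a fragment of 419 bases of it, Cau.20G0010120, was lower in C (-0.62, adjusted p = 0.0368), a call that no fit with a library left out gave. ift88, a core subunit needed for outer segment assembly in mice, had 16.8, 15.8 and 17.1 FPKM in C and 16.7, 13.9 and 17.3 FPKM in R (0.06, adjusted p = 0.769). ift122, of the retrograde complex, had 16.8, 15.3 and 20.7 FPKM in C and 14.6, 13.9 and 15.0 FPKM in R, with C above R and no call (0.26, adjusted p = 0.204). The sums of the other IFT names lay between -0.17 and 0.48 on the log2 scale.

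Genes with bbs names, of the BBSome and its partners, gave no call. Of 20 models 14 were tested, and 0 were called in either direction by limma on FPKM or by limma-voom. An unadjusted p under 0.05 was found for 2 (11973 of all 33907 tested models), and the median log2 fold change was 0.05. bbs5, a BBSome subunit that binds membrane lipids, had 28.7, 33.0 and 37.6 FPKM in C1, C2 and C3 and 30.04, 26.8 and 30.2 FPKM in R1, R2 and R3 (0.18, adjusted p = 0.343). bbs1, the subunit that binds the GTPase Arl6, had 26.4, 31.8 and 37.5 FPKM in C and 31.1, 22.2 and 25.4 FPKM in R (0.27, adjusted p = 0.281). The groups overlapped for both. bbs9, a scaffold of the complex, had 16.7, 20.0 and 15.4 FPKM in C and 20.8, 22.2 and 22.6 FPKM in R, with C below R and no call (-0.32, SE 0.12, adjusted p = 0.104, and 0.0458 to 0.251 over 10 alternatives, the lowest without C2).

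The other genes of ciliary transport and the transition zone had 80 tested models, 7 higher and 5 lower in C. That is 15% called, against 20.2% of all tested models. arl13b, the ciliary GTPase that activates Arl3, was higher, with 232, 228 and 273 FPKM in C1, C2 and C3 and 112, 110 and 119 FPKM in R1, R2 and R3 at its model on chromosome 14 (1.09, SE 0.12, adjusted p = 0.00131). tmem231, a membrane protein of the transition zone, was lower, with 0.910, 0.701 and 1.40 FPKM in C and 2.97, 3.45 and 4.10 FPKM in R at its model on chromosome 50 (-1.18, SE 0.20, adjusted p = 0.00649). That model reached the test's minimum through the R libraries, so its call is a description.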

How the data were processed

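Per the labels' protocols, whole eyes were snap-frozen, extracted with Trizol and turned into TruSeq libraries from 3 µg of RNA each. The deposited table holds FPKM for each gene model with its position, length and best protein match, and the deposited tables of either group repeat its values. The submitters' processing notes list Bowtie 0.12.5, TopHat2 2.0.9 and DESeq 1.10.1 without roles, and a pig genome build that cannot belong to goldfish identifiers. For the assembly, the counting program and its use of strand, the sources used here give nothing. Reads of near-identical copies and of overlapping antisense models may not be separated.

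Names came from the Swiss-Prot match. RefSeq (assembly ASM336829v1, names only) held an accession for 101 of the 148 models and a gene symbol for 36 of them. Members, classes and lists were chosen with earlier results of these data known. Models with at least 1 FPKM in at least 3 libraries were tested in R 4.3.3 with limma 3.58.1 (lmFit, then robust eBayes with a trend) on log2(FPKM + 1), which understates the change of low genes. Group was the sole term, and p-values were adjusted by Benjamini-Hochberg over all tested models. Sums per name were tested in the same way. Ratios of paired copies were tested without the trend, since a ratio has no level. The test was checked on simulated data. FPKM times length gave whole reads (tolerance 0.01), and these gave the depths and, with TMM scaling, the limma-voom alternative. The labels do not tie libraries to fish, so p-values reflect only how these libraries vary. Replicate numbers were not treated as pairs, although the correlations given below cannot exclude pairing with 3 libraries per group. Values were given per library for the main model of each name in the small classes, the 3 most abundant ift and bbs names, models called at a log2 fold change of at least 1, pairs called and names called, and further models were named after their values were seen. Alternatives were other pseudocounts, filters and scalings, limma-voom, the replicate number as a term and leaving out each library.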

Additional observations from a re-analysis of the deposited data

How the results depend on the processing

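Depth limits the low copies most, and 2 members, of eys and rpgr, reached the test's minimum through C alone. With each library left out in turn, the gene models called ranged from 3557 to 6404 (higher in C 1628 to 3163, lower 1929 to 4056), those of the outer segment and cilium from 16 to 25 higher and 5 to 11 lower, names called from 1041 to 2752 (among these genes 5 to 9 higher and 0 to 3 lower) and pairs from 564 to 813 (among these genes 2 to 4). By class the ranges were 1 to 3 higher and 3 to 5 lower for discs, 0 to 1 lower for the axoneme, 5 to 6 higher for the matrix, 0 to 1 higher for Usher proteins, 6 to 9 higher and 1 to 6 lower for cargo, 3 to 4 higher and 0 to 1 lower for polarity, 0 to 2 higher and 0 lower for IFT, 0 to 1 lower for BBS and 1 higher for the connecting cilium. A mean of at least 5 FPKM gave 3670 calls (1959 higher, 1711 lower, fewer models tested), 591 pairs and 0 calls in the connecting cilium. Setting the median log2 ratio to 0 gave 7 lower calls among these genes, 0 in the axoneme, 1 lower Usher call, 2 higher in the connecting cilium, 2 lower in cargo and 0 lower in IFT. Quantile normalization called 3460 of all models higher and 3527 lower. It gave 1 higher and 6 lower disc calls, 1 higher and 1 lower Usher call and 0 lower IFT calls. With limma-voom there were 3 higher Usher calls, 3 higher in the connecting cilium, 3 lower in cargo, and 4 higher and 0 lower in IFT. No low-value filter gave 0 lower IFT calls, with 2729 of all models higher and 3808 lower. Why the counts differed between settings was not tested. With replicate number as a block, 5971 models and 806 pairs were called (25 higher and 11 lower models and 4 pairs among these genes), with 1 higher and 1 lower Usher call. Deviations of same-numbered libraries correlated at -0.01, 0.10 and 0.04 for numbers 1, 2 and 3, none over 0.1, and C2 alone correlated best with its own number. Signs turned only in fold changes that were not called, for 4 models and 4 sums. For models these were fscn2 (-0.0227), rp1l1 (-0.0434) and bbs5 (-0.0502) with quantile normalization. With a library left out, ift88 ran from -0.0324 (without R2) to 0.116 and bbs5 from -0.0626 (without C3) to 0.201. For sums they were pcdh15 (0.16), reep6 (0.18) and unc119 (0.10) when recovered reads scaled to the library were summed, and pcdh15 (0.0495) and rp1l1 (0.0390) with the median ratio set to 0. With a library left out, the sum of pcdh15 ran from -0.117 to 0.131 (without C3) and that of rp1l1 from -0.107 to 0.0152 (without C3). Of 518 values of named models under alternatives 474 stayed on their side of the threshold with their sign, 26 lost and 11 gained a call. The same held for 210 of 240 values of sums (15 lost, 4 gained) and 37 of 54 of pairs (15 lost, 2 gained).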

Other observations

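Some of these genes are neighbours. On chromosome 37 a copy of arl3 starts 168 kb from the main copy of fscn2, which starts 216 kb from a copy of prph2, and on chromosome 12 copies of arl3 and fscn2 start 192 kb apart. The arl3 and prph2 copies on chromosome 37 were called higher in C (log2 fold changes 0.54 and 0.48), and the fscn2 copy between them was not (0.19). On chromosome 12, arl3 and fscn2 had fold changes of opposite sign (0.52 and -0.35), neither of them called.

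Among the 114 tested models 16 were called and differed by at least 2-fold between C and R on the log2(FPKM + 1) scale. Over all 33907 tested models 3195 did so. The 16 lay in the disc, matrix, connecting cilium, cargo and polarity classes. The connecting cilium model, of rpgr, and 1 matrix model, of eys, reached the test's minimum through C alone. Models under a shared RefSeq gene were frequent: 15 RefSeq genes held 38 of the 148 models, so counts of models weigh fragmented genes such as pcdh15 and bbs9 more heavily than intact ones.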
